A study of Mus musculus with 8 samples.

Results

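The synaptonemal complex, the meiotic chromosome axis and meiotic cohesin are represented here by 10 listed genes, out of 24421 gene symbols counted in mouse embryonic stem cells. The genes were taken by name: Sycp1, Syce1, Syce2, Sycp2, Sycp3, Hormad1, Smc1b, Stag3, Rec8 and Tex11. All 10 were present in the count tables of both comparisons, and all 10 passed the filter on low counts in each, so none was left untested. Polyadenylated RNA was sequenced in 8 libraries, 2 for each of 4 groups. The Ubc9-depleted group had doxycycline for 72 h to remove Ubc9, the enzyme that passes SUMO to its target proteins, and the Ubc9 control group, labelled Ubc9-WT, was of the same v6.5 line. H1 TKO cells, labelled H1-TKO, lack the linker histones H1.2, H1.3 and H1.4, and H1 controls, labelled H1_WT, were their reference. For the line of both H1 groups the labels point to an earlier paper. All 4 groups were kept in 2i/LIF, a medium that holds stem cells in a naive state, over 3 to 4 passages. The labels do not say whether Ubc9 controls also had doxycycline, how Ubc9 is removed in this line, whether a group is 1 clone, or whether the 2 libraries of a group are from separate cultures. The p-values therefore measure only the spread between these libraries, which may be technical.

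In meiotic prophase, homologous chromosomes are paired along their length and joined by the synaptonemal complex, a zipper-like protein structure. Each chromosome is folded into loops on an axis of meiosis-specific cohesin with SYCP2, SYCP3 and HORMAD1, and SYCP1 filaments bridge the axes, held in the middle by central element proteins such as SYCE1 and SYCE2. Embryonic stem cells do not enter meiosis, and many germline genes are held down in them by DNA methylation, histone methylation and a variant Polycomb complex that contains E2F6, MGA and MAX.

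Library totals were between 44441713 and 102780141 counts. Hist1h1c, Hist1h1d and Hist1h1e, the genes of the 3 deleted histones, had 0 counts in both H1 TKO libraries and between 100 and 231 counts in each H1 control library. All 10 stem cell markers were detected in all 8 libraries, with summed levels of 5164 and 5193 counts-per-million units (CPM, on library totals scaled by TMM factors) in Ubc9-depleted cells, 5416 and 5684 CPM in Ubc9 controls, 11039 and 10891 CPM in H1 TKO cells and 5748 and 6195 CPM in H1 controls. Of the 10 markers only Tfcp2l1 was called in the H1 comparison, with 5416 and 4914 CPM in H1 TKO cells against 1778 and 1611 CPM in H1 controls (edgeR adjusted p = 0.00243), and Zfp42 and Klf4 were lower in both H1 TKO libraries without passing. Ubc9-depleted library 1 stood apart in that 23462 genes had a count in it, against 18584 to 19591 in the other Ubc9 libraries. Between the libraries of a pair the SD of log2 ratios over genes was 0.825 in Ubc9-depleted cells and 0.403 in Ubc9 controls, and 0.514 in H1 TKO cells and 0.791 in H1 controls. The Ubc9 and H1 libraries were made with different kits and the tables were normalised separately, so levels are not compared between them.

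All 10 genes had reads in all 8 libraries, but their levels were far apart. Per kilobase of exon, Hormad1, an axis protein that marks unsynapsed chromosomes, was the highest in Ubc9-depleted cells at 71.0 CPM per kb and in Ubc9 controls at 52.4 CPM per kb. Syce1, of the central element, followed with 34.0 CPM per kb in Ubc9-depleted cells and 41.4 in Ubc9 controls. Sycp2, of the lateral element, was the lowest in every group, with 0.443 CPM per kb in Ubc9-depleted cells, 0.116 in Ubc9 controls, 0.0300 in H1 TKO cells and 0.0198 in H1 controls. In Ubc9-depleted cells the order in between was Smc1b, Stag3, Syce2, Sycp1, Sycp3, Tex11 and Rec8, from 15.6 to 3.27 CPM per kb. Among these, Stag3 overlapped with both Smc1b and Syce2 in its library values, and Rec8 with Tex11. In Ubc9 controls the order was Syce2, Smc1b, Stag3, Sycp3, Sycp1, Rec8 and Tex11, from 19.1 to 3.42 CPM per kb, and no neighbours in the whole order of the 10 overlapped. Sycp1, which spans the complex, stood above Sycp3 in Ubc9-depleted cells, at 10.4 and 7.70 CPM per kb, and below it in Ubc9 controls, at 4.03 and 6.16 CPM per kb.

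In the H1 libraries Syce2, of the central element, was the highest, at 28.9 CPM per kb in H1 TKO cells and 66.8 CPM per kb in H1 controls. Hormad1, Rec8, Syce1 and Stag3 came next in both groups, from 14 to 2.59 CPM per kb in H1 TKO cells and from 10.4 to 3.22 CPM per kb in H1 controls. Sycp1, Sycp3, Tex11 and Smc1b were between 0.883 and 0.374 CPM per kb in H1 TKO cells, and each overlapped with the next in its library values. In H1 controls Sycp3, at 2.19 CPM per kb, overlapped with Stag3, and Tex11, Sycp1 and Smc1b overlapped with each other between 0.496 and 0.106 CPM per kb. Differences between genes on this scale also carry each kit's own coverage of a transcript.

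**Figure D1:**
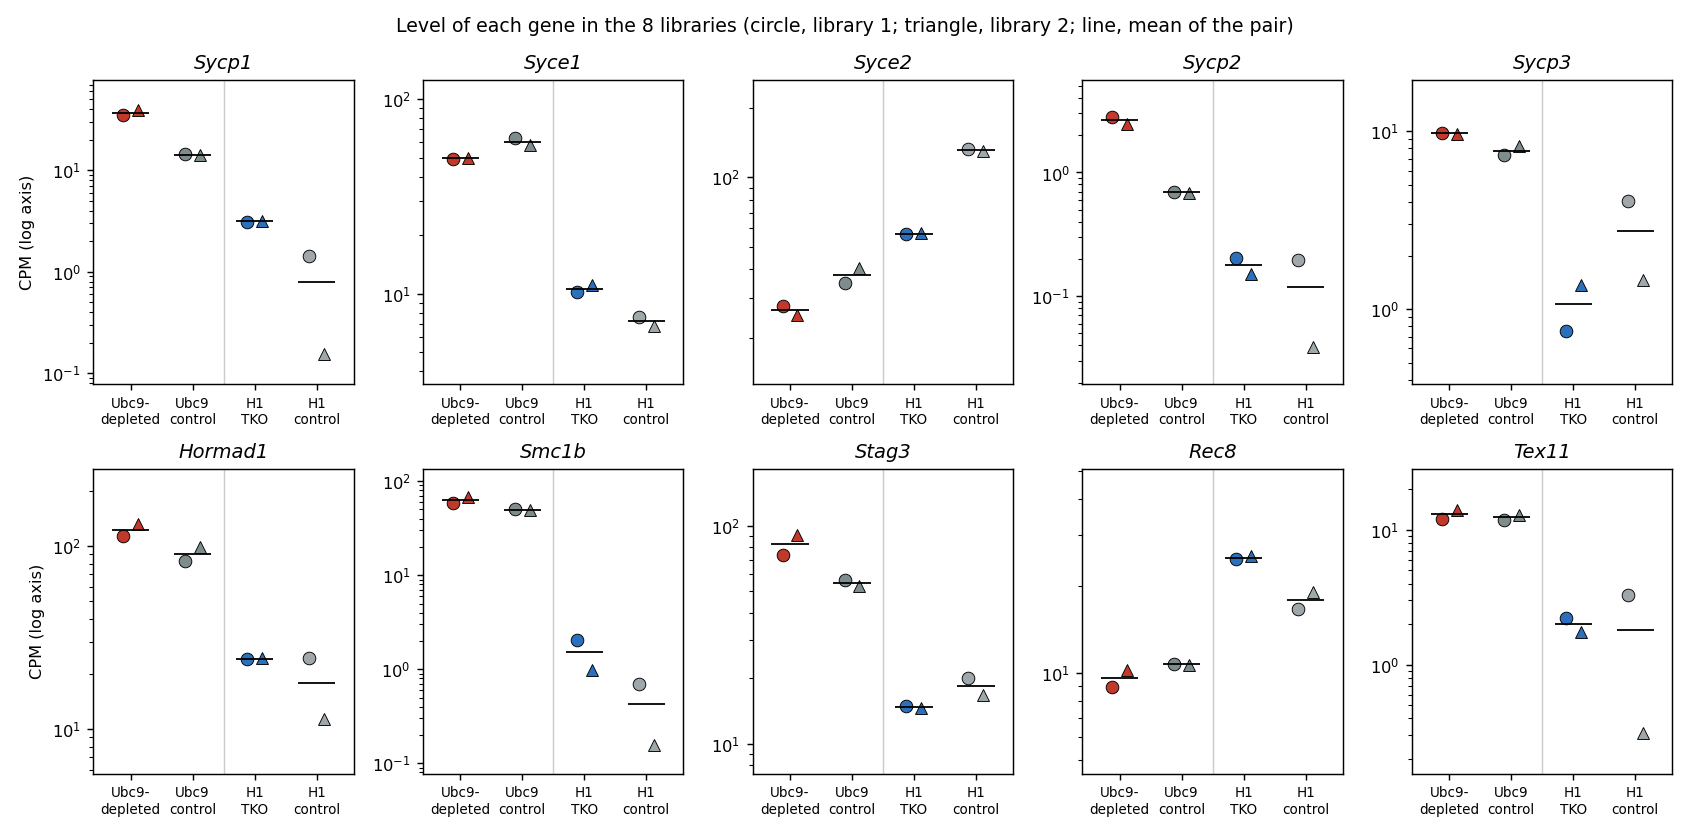
Level of each of the 10 genes in the 8 libraries, in CPM on a log axis that differs between panels; circles are library 1 and triangles library 2 of a group, and the line is their mean. The pairs lie close together in the Ubc9 libraries and in H1 TKO cells for most genes, while the H1 control pair is far apart for Sycp1, Sycp2, Smc1b and Tex11.

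Promoter sequence was examined because the E2F6 and MGA-MAX subunits named above bind known short motifs. RefSeq windows of GRCm38.p6, from 250 bases before to 50 bases after an annotated start, were at hand for 9 of the 10 genes, in 11 windows. Tex11 had none in the table. The windows were searched on both strands for the E2F-type motif GCGGGAA and the E-box CACGTG, which share no bases in the member windows. The E2F-type motif was found in 5 genes, Hormad1, Stag3, Smc1b, Sycp3 and the second start of Syce2. The E-box was found in 5 genes, Hormad1, Sycp1, Stag3, Sycp3 and the second start of Syce2, so that 4 genes held both. Of 32851 windows of the same length in the table, 4.6% held the E2F-type motif, 7.15% the E-box and 0.457% both. The member windows held between 10 and 33 CpG, and among the 43.5% of windows with at least 10 CpG the shares were 9.2% and 10.9%. That floor is the count of Sycp2, and the next lowest, of Syce1, was 14. Member counts are of genes with a motif in any of their windows, while these shares are of windows, so the 2 are not on the same footing. The share with both motifs was not taken at that floor. Sycp2, Syce1 and Rec8 held neither motif, which says only that these letters are not in these windows. A match is a description and not a bound site. Shown are the windows of Sycp1, Stag3, Hormad1 and Smc1b, whose level rose in Ubc9-depleted cells and whose windows hold a motif, and of Syce2, which was lower in both comparisons. Not shown are Sycp2, which rose the most there and holds neither motif, and Sycp3, which holds both and did not pass. A link between motif and change was not tested. Letters run 5′ to 3′ along the gene, and capitals mark the motifs, with TTCCCGC the E2F-type motif on the other strand.
Sycp1 promoter (chr3:102936051-102936350, minus strand): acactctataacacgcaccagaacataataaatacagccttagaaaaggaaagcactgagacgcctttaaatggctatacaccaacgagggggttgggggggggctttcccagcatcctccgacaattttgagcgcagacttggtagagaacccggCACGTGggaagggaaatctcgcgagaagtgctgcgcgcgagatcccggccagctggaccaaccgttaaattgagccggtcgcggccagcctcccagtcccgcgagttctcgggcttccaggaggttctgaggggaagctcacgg
Stag3 promoter (chr5:138280259-138280558, plus strand): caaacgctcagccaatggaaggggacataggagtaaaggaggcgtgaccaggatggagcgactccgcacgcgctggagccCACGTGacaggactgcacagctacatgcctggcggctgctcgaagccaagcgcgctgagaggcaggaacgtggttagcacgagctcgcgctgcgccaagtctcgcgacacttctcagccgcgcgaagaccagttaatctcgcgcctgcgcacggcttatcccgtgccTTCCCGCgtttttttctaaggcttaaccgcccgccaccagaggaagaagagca
Hormad1 promoter (chr3:95559427-95559726, plus strand): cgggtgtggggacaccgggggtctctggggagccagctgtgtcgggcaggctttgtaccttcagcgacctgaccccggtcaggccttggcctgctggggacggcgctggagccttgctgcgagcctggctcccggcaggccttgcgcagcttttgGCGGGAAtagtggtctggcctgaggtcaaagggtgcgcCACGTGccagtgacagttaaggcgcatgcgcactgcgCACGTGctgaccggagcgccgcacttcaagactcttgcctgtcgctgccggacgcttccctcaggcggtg
Smc1b promoter (chr15:85131908-85132207, minus strand): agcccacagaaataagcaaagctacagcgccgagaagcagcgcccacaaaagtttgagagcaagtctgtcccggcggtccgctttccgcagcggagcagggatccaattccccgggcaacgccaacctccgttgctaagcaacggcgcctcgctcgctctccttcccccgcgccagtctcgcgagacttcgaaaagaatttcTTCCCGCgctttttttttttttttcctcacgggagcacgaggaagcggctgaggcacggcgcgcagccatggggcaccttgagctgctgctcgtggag
Syce2 promoter (chr8:84872008-84872307, plus strand): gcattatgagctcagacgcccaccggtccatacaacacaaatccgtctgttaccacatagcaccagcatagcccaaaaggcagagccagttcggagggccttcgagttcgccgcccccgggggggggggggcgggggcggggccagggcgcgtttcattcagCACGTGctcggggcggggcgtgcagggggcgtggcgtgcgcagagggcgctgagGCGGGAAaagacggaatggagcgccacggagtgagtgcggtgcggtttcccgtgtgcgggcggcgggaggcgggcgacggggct

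In Sycp1 the E-box starts 94 bases before the annotated start. In Stag3 the E-box starts 170 bases and the E2F-type motif 3 bases before it. Hormad1 has its E2F-type motif 95 bases and its E-boxes 57 and 20 bases before the first of its annotated starts. The E2F-type motif of Smc1b starts 48 bases before the start. Those of Syce2 lie 88 bases (E-box) and 34 bases (E2F-type) before its second start, and the window of its first start holds neither.

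**Figure D2:**
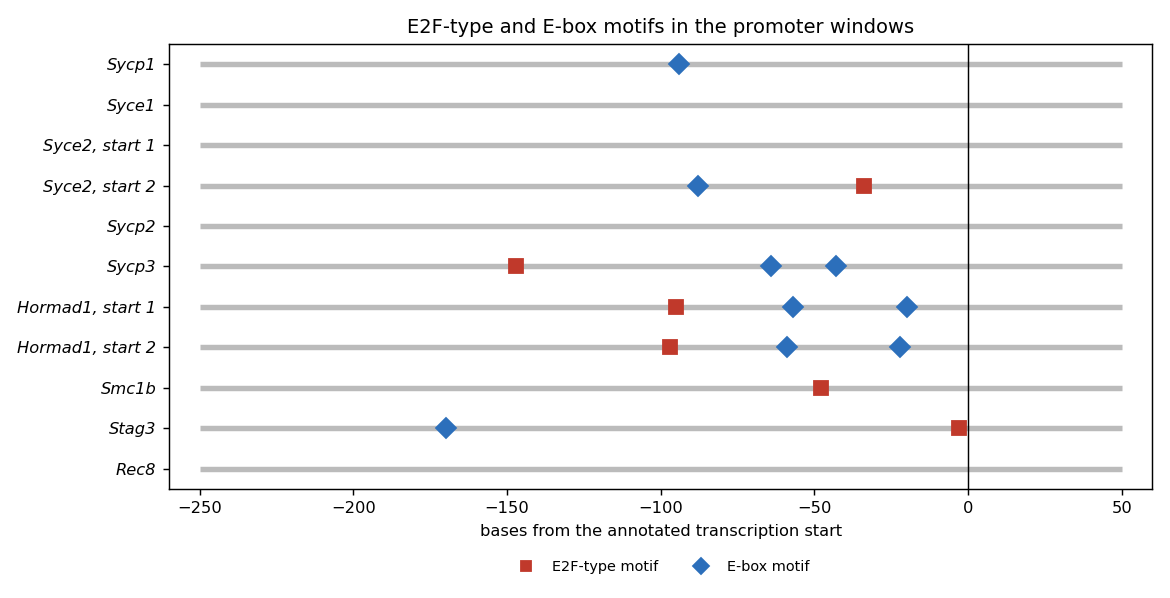
Position of the E2F-type motif (squares) and the E-box (diamonds) in the 11 promoter windows of 9 genes, in bases from the annotated transcription start. Sycp2, Syce1, Rec8 and the first start of Syce2 carry no symbol.

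In Ubc9-depleted cells 5 of the 10 genes rose, 2 fell and 3 did not pass the test. Sycp2, Sycp1, Stag3, Hormad1 and Smc1b rose by log2 fold changes of 0.35 to 1.93, and Syce2 and Syce1 fell, by 0.51 and 0.28 on the log2 scale. Of the 16499 genes tested, 36% passed edgeR's quasi-likelihood test at a Benjamini-Hochberg adjusted p under 0.05, 21.1% higher and 15% lower. The median log2 fold change was 0.33 over the 10 genes and 0.06 over all genes tested. Ubc9-depleted values lay wholly above the Ubc9 controls for 6 of the 10 genes and wholly below for 3, against 36.7% and 32.2% of all genes tested, 68.9% in either direction. In bulk RNA, fewer cells of a type and less RNA per cell cannot be told apart.

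Sycp1 (chr3:102818499-102936100, minus strand, in GRCm38 as are the other positions) encodes the transverse filament that bridges the chromosome axes. It had 35.0 and 39.1 CPM in Ubc9-depleted cells, against 14.5 and 14.2 CPM in Ubc9 controls. Both depleted libraries were far above both controls, and the pairs were close. Its mean was 37.1 ± 2.94 CPM against 14.3 ± 0.194 CPM (SD, n = 2 each), a log2 fold change of 1.37 ± 0.11 (SE), and the adjusted p in edgeR was 4.35e-11. Without any 1 library it stayed between 1.21 and 1.45 and passed each time. A processed pseudogene, Sycp1-ps1, was counted at 1.03 and 1.64 CPM in Ubc9-depleted cells and 0.309 and 0.282 CPM in Ubc9 controls, and reads could be shared between the gene and this copy.

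Syce1 and Syce2, of the central element, were lower in Ubc9-depleted cells, while 2 other central element genes, Six6os1 and Syce3, were called higher and are described with the partner genes. Syce2 (chr8:84872111-84888221, plus strand) had 27.7 and 25.1 CPM in Ubc9-depleted cells, against 34.8 and 40.4 CPM in Ubc9 controls, and the groups did not overlap. Its log2 fold change was -0.51 ± 0.11 (edgeR adjusted p = 0.000852). Syce1 (chr7:140777229-140787852, minus strand) had 49.4 and 49.8 CPM in Ubc9-depleted cells, against 62.8 and 58.1 CPM in Ubc9 controls, also without overlap. Its log2 fold change of -0.28 ± 0.11 was near the threshold (edgeR adjusted p = 0.0476). Scaling by library totals alone raised the median of all genes to 0.25, and neither gene then passed, at -0.31 for Syce2 (adjusted p = 0.0744) and -0.09 for Syce1 (0.477). Syce2 also missed the threshold without Ubc9 control library 2, at -0.43 (0.0777). Syce1 missed it without depleted library 1 (-0.28, 0.0579), control library 1 (-0.25, 0.507) or control library 2 (-0.37, 0.271), and with RLE factors (-0.32, 0.0553).

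Of the axis genes, Sycp2 (chr2:178345293-178407685, minus strand), a scaffold of the lateral element, had 2.81 and 2.48 CPM in Ubc9-depleted cells, against 0.700 and 0.684 CPM in Ubc9 controls. These are 281 and 189 reads against 68 and 63, the fewest of the 10 genes, and the pairs were close. Its log2 fold change of 1.93 ± 0.46 was the highest of the 10 (edgeR adjusted p = 0.00179). Without control library 1 it was 1.92 (0.11) and without control library 2 it was 1.88 (0.128). Hormad1 (chr3:95559677-95587671, plus strand), which recruits the checkpoint machinery to unsynapsed axes, had 114 and 132 CPM in Ubc9-depleted cells and 82.3 and 98.9 CPM in Ubc9 controls. The groups did not overlap, but the pairs spread, and the log2 fold change was 0.44 ± 0.13 (edgeR adjusted p = 0.00765). It missed the threshold without depleted library 2 (0.25, 0.0661), control library 1 (0.29, 0.548) or control library 2 (0.54, 0.151). Sycp3 (chr10:88459569-88473236, plus strand), the fibrous core of the lateral element, had 9.75 and 9.70 CPM in Ubc9-depleted cells and 7.35 and 8.22 CPM in Ubc9 controls. Depleted values were both above the controls, yet the log2 fold change of 0.32 ± 0.13 did not pass (edgeR adjusted p = 0.0603), and with library totals alone it did (0.51, 0.0341). Sycp3 shares 660 exonic bases with Chpt1 on the other strand, and whether the counting used strand is not given in the sources used here. Chpt1 itself had a log2 fold change of -0.38 ± 0.12 (edgeR adjusted p = 0.0118).

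The meiotic cohesin subunits split. Stag3 (chr5:138280240-138312393, plus strand), the meiosis-specific STAG subunit, had 73.5 and 90.7 CPM in Ubc9-depleted cells, against 56.7 and 52.7 CPM in Ubc9 controls. Both depleted libraries were above both controls, and the log2 fold change was 0.59 ± 0.12 (edgeR adjusted p = 0.000394). It was 0.35 without depleted library 2 (0.0105) and missed the threshold without control library 2 (0.50, 0.138). Smc1b (chr15:85064689-85131964, minus strand), which replaces the ring subunit SMC1A in meiotic cohesin, had 59.1 and 67.2 CPM in Ubc9-depleted cells and 50.2 and 49.0 CPM in Ubc9 controls. Its log2 fold change was 0.35 ± 0.11 (edgeR adjusted p = 0.0184), with no overlap between groups. It missed the threshold without depleted library 2 (0.17, 0.185), control library 1 (0.34, 0.341) or control library 2 (0.30, 0.459), with RLE factors (0.32, 0.055) and in DESeq2 (0.29, 0.128). Rec8 (chr14:55618037-55625395, plus strand), the meiotic kleisin that closes the ring, had 8.96 and 10.3 CPM in Ubc9-depleted cells and 10.7 in each Ubc9 control, a log2 fold change of -0.16 ± 0.13 that did not pass (0.337 in edgeR). Tex11 (chrX:100838648-101059667, minus strand), an X-linked gene whose product joins the synaptonemal complex and recombination sites, had 12.1 and 14.1 CPM in Ubc9-depleted cells, against 11.9 and 12.9 CPM in Ubc9 controls. Its groups overlapped and the log2 fold change was 0.08 ± 0.12 (edgeR adjusted p = 0.607).

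**Figure D3:**
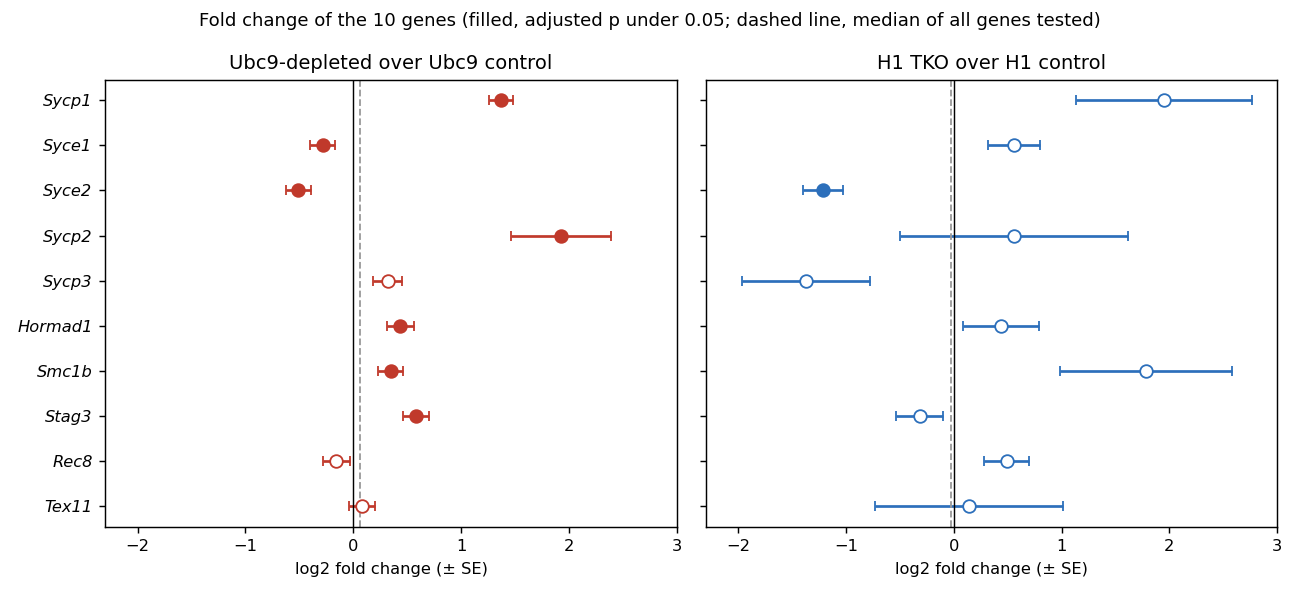
Log2 fold change (± SE) of the 10 genes in Ubc9-depleted cells over Ubc9 controls (left) and H1 TKO cells over H1 controls (right); filled points passed at an adjusted p under 0.05 and the dashed line is the median of all genes tested. On the left 7 points are filled, with Sycp2 and Sycp1 farthest right, and on the right Syce2 alone is filled while most other points have wide error bars.

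When 1 library is left out, the group left with a lone library is assumed to vary like the others. Over all genes, 2197 passed without Ubc9 control library 1, 2025 without control library 2, 5647 without depleted library 1 and 13038 without depleted library 2, against 5946 with all 4. Without depleted library 1, which stood apart, 5 of the 10 genes were called higher and 1 lower. Of the 10 genes, Sycp1 alone passed whichever of the 4 libraries was left out. In a fit of all 8 libraries with a shared spread, 0 of the 10 genes passed in the Ubc9 comparison by edgeR. An unadjusted p under 0.05 was seen for 4 of them, 3 higher and 1 lower. Fewer genes passed in that fit as a whole, 1583 of 16974 tested, against 5946 of 16499 in the fit of 4 libraries. DESeq2 on the 4 libraries called 4 higher and 2 lower. The fold changes themselves hardly moved in the fit of 8, with 1.36 for Sycp1 (0.0903) and 1.92 for Sycp2 (0.101).

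The H1 comparison gave a single call. Syce2 fell in H1 TKO cells, and the other 9 genes did not pass, while 17% of the 14800 genes tested did, 8.59% higher and 8.43% lower. The median log2 fold change was 0.46 over the 10 genes and -0.02 over all genes tested. H1 TKO values lay wholly above the H1 controls for 4 genes and wholly below for 3, against 31.4% and 30.6% of all genes tested, 62% in either direction, and 3 overlapped. With an unadjusted p under 0.05 there were 2 of the 10 genes, Sycp1 and Syce2, and DESeq2 called the same 2 genes, Sycp1 with an adjusted p of 0.037. In the fit of all 8 libraries 6 genes passed, with Sycp1, Syce1, Smc1b and Rec8 higher and Syce2 and Sycp3 lower. More genes passed in that fit as a whole, 4363 of 16974 tested, against 2518 of 14800 in the fit of 4 libraries.

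Syce2 had 56.5 and 57.2 CPM in H1 TKO cells, against 133 and 130 CPM in H1 controls. The pairs agreed closely and the groups were far apart, with means of 56.8 ± 0.492 CPM against 131 ± 2.13 CPM (SD, n = 2 each). Its log2 fold change was -1.21 ± 0.19 (edgeR adjusted p = 0.00606). Without H1 TKO library 1 it was -1.22 (0.155) and without H1 TKO library 2 it was -1.22 (0.169). Syce2 lies on chromosome 8. The genes of this chromosome were lower as a whole in H1 TKO cells, with a median log2 fold change of -0.53 over 785 tested genes against 0.00 elsewhere. Chromosome 8 took 4.79% and 4.84% of the counts in H1 TKO libraries and 6.86% and 7.75% in H1 controls, while all 4 Ubc9 libraries were between 4.42% and 4.48%. Relative to its chromosome's median, Syce2 was lower by a log2 difference of -0.68, and 16.6% of the genes tested on chromosome 8 had a fold change at or below its own. The part of the chromosome-wide shift in this result was not tested. Its partner Syce1 did not pass, with 10.2 and 11.0 CPM in H1 TKO cells and 7.60 and 6.85 CPM in H1 controls, a log2 fold change of 0.56 ± 0.24 in the other direction (edgeR adjusted p = 0.157).

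Sycp1 had 3.10 and 3.17 CPM in H1 TKO cells, against 1.44 and 0.155 CPM in H1 controls. The knockout pair was close, and the controls, at 88 and 8 reads, differed 9.31-fold from each other. A difference this large within the control pair (as a log2 ratio with 0.1 CPM added to each value) was seen in 0.176% of genes tested. The log2 fold change of 1.95 ± 0.82 did not pass (edgeR adjusted p = 0.149). Tex11 was also spread, with 2.24 and 1.75 CPM in H1 TKO cells and 3.28 and 0.310 CPM in H1 controls, a 10.6-fold difference within the control pair that 0.0338% of genes matched. Its groups overlapped and its log2 fold change was 0.14 ± 0.87 (edgeR adjusted p = 0.933). Smc1b had 2.03 and 0.991 CPM in H1 TKO cells and 0.706 and 0.155 CPM in H1 controls. Its values did not overlap, and its log2 fold change was 1.78 ± 0.80 (edgeR adjusted p = 0.172). Sycp2, with 0.205 and 0.153 CPM in H1 TKO cells and 0.197 and 0.0388 CPM in H1 controls, rested on 9 and 10 reads against 12 and 2. Its log2 fold change of 0.56 ± 1.06 did not pass (edgeR adjusted p = 0.763), and a change was not detectable at this depth.

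Sycp3 ran the other way, with 0.753 and 1.37 CPM in H1 TKO cells and 4.07 and 1.45 CPM in H1 controls. The knockout values were below both controls, 1 of them by little, and the log2 fold change of -1.37 ± 0.59 did not pass (edgeR adjusted p = 0.16). Hormad1 had 24.1 and 24.4 CPM in H1 TKO cells, against 24.4 and 11.4 CPM in H1 controls, so that the knockouts were level with control library 1 and above library 2, and the log2 fold change was 0.44 ± 0.35 (edgeR adjusted p = 0.435). Stag3 had 15 and 14.7 CPM in H1 TKO cells and 20.1 and 16.9 CPM in H1 controls, a log2 fold change of -0.32 ± 0.22 (edgeR adjusted p = 0.363). Rec8 had 24.8 and 25.4 CPM in H1 TKO cells and 16.7 and 19.1 CPM in H1 controls. Here the groups did not overlap and both pairs were close, yet the log2 fold change of 0.49 ± 0.21 did not pass (edgeR adjusted p = 0.156).

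Which H1 control library was used decided most of these values. Without H1 control library 1, 6 genes were called higher in H1 TKO cells: Sycp1 (4.32), Smc1b (3.26), Tex11 (2.68), Hormad1 (1.10), Syce1 (0.64) and Rec8 (0.40), all log2 fold changes, and Syce2 was called lower. Without H1 control library 2, Sycp1 (1.11), Syce1 (0.48) and Rec8 (0.59) were called higher, and Syce2 (-1.23), Sycp3 (-1.92) and Stag3 (-0.44) lower. Tex11 was then at -0.73 and did not pass. Over all genes, 7115 and 8032 passed in these fits, against 2518 with all 4 libraries. The log2 fold changes of Sycp1, Syce1 and Rec8 stayed above 0 and that of Syce2 below 0 whichever control library was left out. These fits tested 15395 and 15489 genes. They take their spread from the H1 TKO pair alone, so their calls leave out the spread between H1 controls. Without H1 TKO library 1, 0 of the 10 genes passed in edgeR and 2 had an unadjusted p under 0.05, and without H1 TKO library 2 these counts were 0 and 4.

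**Figure D4:**
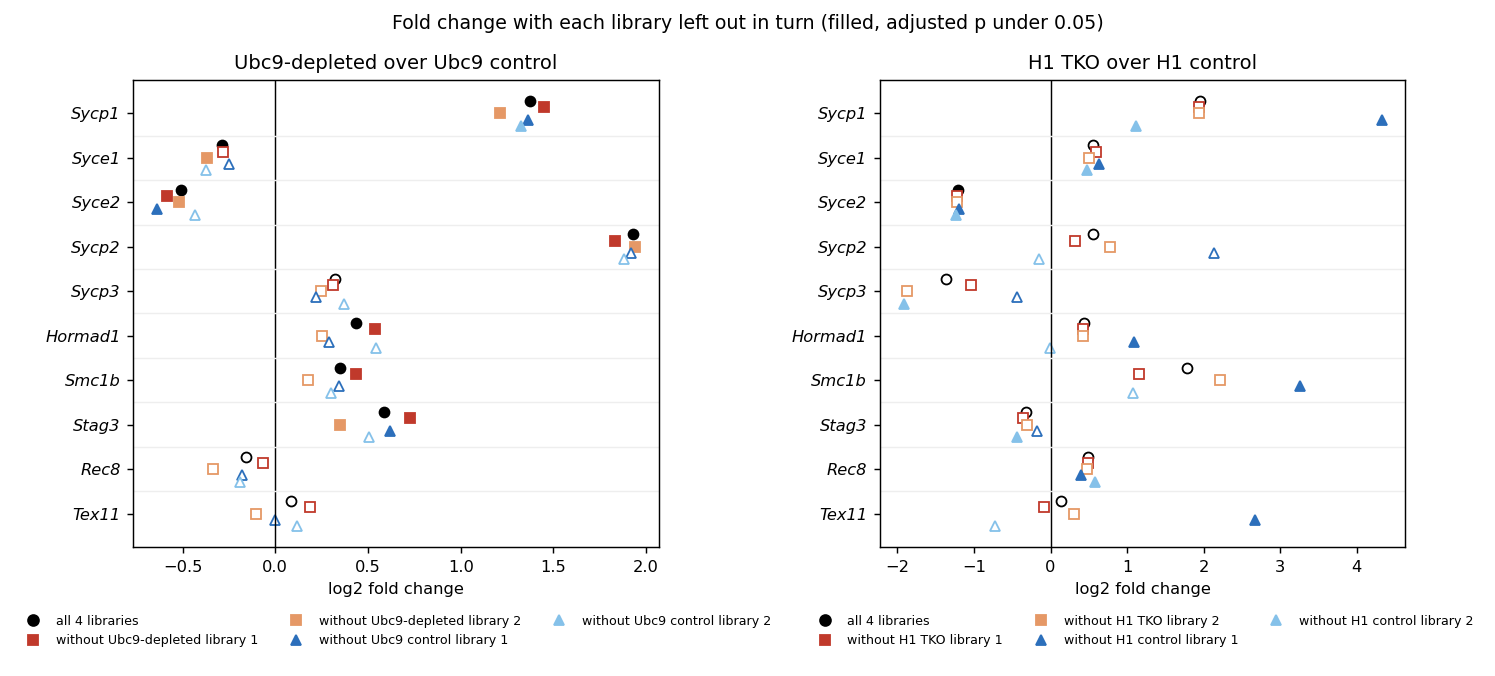
Log2 fold change of the 10 genes with all 4 libraries (black) and with each library left out in turn, for Ubc9-depleted cells over Ubc9 controls (left) and H1 TKO cells over H1 controls (right); filled symbols passed at an adjusted p under 0.05. On the left the symbols of a gene stay close together, and on the right those of Sycp1, Sycp2, Smc1b and Tex11 are far apart when an H1 control library is left out.

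The difference between the comparisons was tested in 1 fit of all 8 libraries, as the Ubc9 log2 fold change minus the H1 log2 fold change. It passed for 2 of the 10 genes, against 14.5% of 16974 genes tested, 8.08% higher and 6.43% lower. Stag3 was 0.89 ± 0.25 higher in the Ubc9 comparison (edgeR adjusted p = 0.0365), and Syce1 was -0.86 ± 0.22 (0.027). For Syce2, called lower in both comparisons, the difference of 0.68 ± 0.22 did not pass (0.0599). For Sycp1, called in the Ubc9 comparison alone, it was -0.56 ± 0.71 (0.648), so a difference in its response was not shown. Both calls were lost without any 1 of the Ubc9 or H1 TKO libraries, where Stag3 was between 0.67 and 1.05 and Syce1 between -0.96 and -0.80. Stag3 also missed the threshold with RLE factors (0.76, 0.0816) and in DESeq2 (0.76, 0.0659), and Syce1 with library totals alone (-0.56, 0.126). The kits and the lines differ between the comparisons and cannot be told apart from the treatments in this difference.

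The members were set beside 48 other genes of meiosis in 6 lists, of which 42 were in the tables. In the Ubc9 comparison 11 of 41 tested genes rose and 5 fell, with a median log2 fold change of 0.27, against 21.1% of all tested genes called higher and 15% lower. Without depleted library 1, which stood apart, the counts were 10 and 7 and the median was 0.07. Without depleted library 2 the counts were 18 and 9, without control library 1 they were 6 and 3, without control library 2 they were 6 and 1, and DESeq2 gave 7 and 6. In the H1 comparison 5 of 35 tested genes rose and 1 fell, with a median of -0.08, against 8.59% of all tested genes called higher and 8.43% lower, and the counts were 11 and 4 without control library 1, 6 and 9 without control library 2, 3 and 1 without H1 TKO library 1 and 2 and 1 without H1 TKO library 2.

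Of the 6 tested partners in the complex and axis, 2 rose and 1 fell in Ubc9-depleted cells. 4930447C04Rik, an older name of the central element gene Six6os1, had 27.1 and 26.2 CPM in Ubc9-depleted cells against 15.7 and 17.0 CPM in Ubc9 controls (0.71 ± 0.11, edgeR adjusted p = 7.07e-06). Syce3, a further central element gene, was also called higher, on 58 and 18 reads (0.579 and 0.236 CPM) in Ubc9-depleted cells against 3 and 5 reads (0.0309 and 0.0543 CPM) in Ubc9 controls (edgeR adjusted p = 0.0292). Syce3 missed the threshold without control library 1 (0.67) or 2 (0.63), with no filter (0.186) and in DESeq2 (0.0913). Hormad2, a relative of Hormad1, had 5.33 and 5.85 CPM in Ubc9-depleted cells and 8.42 and 9.76 CPM in Ubc9 controls (-0.70 ± 0.15, 0.000579 in edgeR), and without control library 2 it missed the threshold (-0.62, 0.115). In H1 TKO cells 2 of 5 tested partners rose, Fkbp6 and Hormad2. Hormad2 had 5.41 and 4.67 CPM in H1 TKO cells and 1.72 and 2.10 CPM in H1 controls (1.40 ± 0.32, edgeR adjusted p = 0.0261), and missed the threshold without H1 TKO library 1 (1.27, 0.207) or 2 (1.5, 0.102). Fkbp6, an immunophilin of the synaptonemal complex, was at 32.1 and 34.8 CPM in H1 TKO cells and 3.46 and 4.00 CPM in H1 controls, a log2 fold change of 3.17 ± 0.23 (edgeR adjusted p = 0.000593). Of 4 meiotic cohesin partners, 1 fell in Ubc9-depleted cells and the other 3 did not pass. It was the centromere protector Sgol2a (-0.50 ± 0.13, edgeR adjusted p = 0.00308), which missed the threshold without control library 1 (-0.54, 0.293) or 2 (-0.52, 0.354).

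Among genes of recombination and crossing over, 4 of 15 tested rose and 1 fell in Ubc9-depleted cells, against 21.1% of all tested genes called higher and 15% lower. DESeq2 called 2 higher and 1 lower. Mnd1, a partner of the strand exchange machinery, had 22.9 and 27.0 CPM in Ubc9-depleted cells and 9.66 and 9.69 CPM in Ubc9 controls, a log2 fold change of 1.37 ± 0.11 (edgeR adjusted p = 9.15e-11). Tex15, which is required for meiotic break repair, was at 56.5 and 62.9 CPM in Ubc9-depleted cells against 27.7 and 28.8 CPM in Ubc9 controls (1.08 ± 0.11, 1.03e-08 in edgeR). In both genes the depleted libraries were far above the controls. Msh4 was also called higher (1.71), on 422 and 75 reads in Ubc9-depleted cells against 82 and 69 in Ubc9 controls. Leaving out 1 library gave 0.30 to 2.32 for Msh4. The other gene that rose, Hfm1 (1.20), had 2.71 and 3.09 CPM in Ubc9-depleted cells and 1.17 and 1.35 CPM in Ubc9 controls. Of the 10 alternative fits listed below, Msh4 missed the threshold in 6, Hfm1 in 4, Tex15 in 1 and Mnd1 in 0. In the H1 comparison 0 of 14 tested genes of this list passed in edgeR and 0 in DESeq2, and 1 had an unadjusted p under 0.05 in edgeR. Of the meiotic entry genes, 2 of 4 rose in Ubc9-depleted cells. Gm1564, an older name of Meioc, had 80.4 and 83.4 CPM in Ubc9-depleted cells and 26.0 and 30.9 CPM in Ubc9 controls (1.52 ± 0.12, edgeR adjusted p = 1.96e-11). Dazl, which encodes an RNA-binding protein of germ cells, had 170 and 175 CPM in Ubc9-depleted cells against 56.0 and 65.7 CPM in Ubc9 controls (1.5 ± 0.12, 7.75e-11 in edgeR). Dazl was also higher in H1 TKO cells (96.5 and 103.02 CPM, against 39.4 and 24.8 CPM in H1 controls, 1.63 ± 0.26, 0.00729 in edgeR). Stra8, which starts the meiotic programme, fell in H1 TKO cells to 8.17 and 7.78 CPM, against 34.3 and 33.4 CPM in H1 controls (-2.09 ± 0.21, edgeR adjusted p = 0.00134).

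Double-strand break genes and telomere attachment genes split within their lists. In Ubc9-depleted cells 2 of 6 tested break genes rose and 1 fell. Without depleted library 2, 5 were called higher, and without control library 1 or 2, 1 was. Mei1, which is needed for meiotic breaks, was called higher on 210 and 14 reads (2.10 and 0.183 CPM) in Ubc9-depleted cells against 2 and 2 reads (0.0206 and 0.0217 CPM) in Ubc9 controls (edgeR adjusted p = 0.000231), so the depleted libraries were far apart from each other. Prdm9, the methyltransferase that places the breaks, had 6.90 and 7.45 CPM in Ubc9-depleted cells and 5.02 and 4.93 CPM in Ubc9 controls (0.53 ± 0.16, edgeR adjusted p = 0.012), and missed the threshold without control library 1 (0.255) or 2 (0.327) and in DESeq2 (0.213). Rec114, a break-forming cofactor, was the one that fell, with 12 and 14.3 CPM in Ubc9-depleted cells against 18.4 and 18.2 CPM in Ubc9 controls (-0.47 ± 0.11, edgeR adjusted p = 0.0017). With library totals alone Rec114 missed the threshold (-0.29, 0.085). In H1 TKO cells Rec114 rose, with 33.1 and 36.4 CPM against 12.5 and 13.5 CPM in H1 controls (1.42 ± 0.21, edgeR adjusted p = 0.00518), and without H1 TKO library 2 it missed the threshold (1.35, 0.0633). Of 6 tested telomere attachment genes, 1 rose and 1 fell in Ubc9-depleted cells, and in H1 TKO cells 1 of 5 rose. They were Ccdc79 (an older name of Terb1) and Sun1 in the Ubc9 comparison and 4933406J08Rik (Terb2) in the H1 comparison. Neither Ubc9 call passed without Ubc9 control library 1 or 2, Ccdc79 also missed the threshold without depleted library 1 (1.10, 0.145), and the H1 call did not pass without H1 TKO library 1 or 2.

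Genes of mitotic cohesin, which holds sister chromatids together in dividing cells, were lower or did not pass. Of 15 mitotic cohesin subunits, loaders and release factors, 6 fell in Ubc9-depleted cells and the other 9 did not pass. Of all tested genes 15% were called lower and 21.1% higher. The median log2 fold change of the list was -0.23. With library totals alone 1 rose and 4 fell, and the median was -0.05. Without control library 1 or 2, 2 fell, and without depleted library 2, 10 fell. Cdca5 (sororin), which keeps cohesin on replicated DNA, had 24.3 and 28.2 CPM in Ubc9-depleted cells and 41.1 and 40.3 CPM in Ubc9 controls, a log2 fold change of -0.63 ± 0.11 (edgeR adjusted p = 5.8e-05). Esco2 (-0.71), Wapal (-0.58) and Espl1 (-0.48) also fell. Leaving out 1 library gave -0.73 to -0.51 for Wapal and -0.66 to -0.40 for Espl1. Of the 10 alternative fits listed below, Wapal and Espl1 each missed the threshold in 3, Esco2 in 1 and Cdca5 in 0. The subunit Smc3 overlapped between the groups, with 882 and 1011 CPM in Ubc9-depleted cells and 968 and 952 CPM in Ubc9 controls, as did Stag2. In the H1 comparison 1 of the 15 fell, against 8.43% of all tested genes called lower, with a list median of -0.45. The median depended on the control library, at 0.03 without H1 control library 1 and -0.80 without H1 control library 2.

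Of 13 repressors of germline genes, 1 rose and 8 fell in Ubc9-depleted cells, against 21.1% of all tested genes called higher and 15% lower. The median log2 fold change of the list was -0.34. Atf7ip, the one that rose, had 304 and 359 CPM in Ubc9-depleted cells and 212 and 199 CPM in Ubc9 controls (0.69). It missed the threshold in 2 of the 10 alternative fits listed below. E2f6 overlapped between the groups, with 32.9 and 34.0 CPM in Ubc9-depleted cells and 33.1 and 33.9 CPM in Ubc9 controls. With library totals alone 1 rose and 4 fell, with a median of -0.14, without depleted library 1 the counts were 1 and 5, and without control library 1 or 2, 2 fell. Uhrf1, which directs maintenance of DNA methylation, had 234 and 262 CPM in Ubc9-depleted cells, against 431 and 448 CPM in Ubc9 controls (-0.83 ± 0.13, edgeR adjusted p = 1.03e-05). Pcgf6, a subunit of the variant Polycomb complex, had 37.9 and 38.8 CPM in Ubc9-depleted cells and 56.3 and 59.3 CPM in Ubc9 controls (-0.59 ± 0.11, 0.000126 in edgeR). Mga, which binds DNA with MAX in that complex, was at 412 and 503 CPM in Ubc9-depleted cells against 632 and 683 CPM in Ubc9 controls (-0.52 ± 0.13, 0.00323), and missed the threshold without control library 1 (-0.60, 0.297) or 2 (-0.50, 0.46). In H1 TKO cells 1 of the 13 rose and 1 fell, against 8.59% of all tested genes called higher and 8.43% lower. The gene that fell was Cbx3, which encodes a heterochromatin protein, with 12.3 and 10.1 CPM in H1 TKO cells and 52.0 and 35.8 CPM in H1 controls (-1.97 ± 0.26, edgeR adjusted p = 0.00353). The gene that rose was Setdb1, a histone H3 lysine methyltransferase, with 161 ± 7.07 CPM in H1 TKO cells and 99.9 ± 5.54 CPM in H1 controls (SD, n = 2 each), a log2 fold change of 0.69 ± 0.18 (edgeR adjusted p = 0.0421). Without H1 control library 1, 3 of the 13 were called higher and 3 lower, and without H1 control library 2, 2 were called higher and 5 lower. Without either H1 TKO library, and with library totals alone, 1 was called lower and Setdb1 did not pass.

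**Figure D5:**
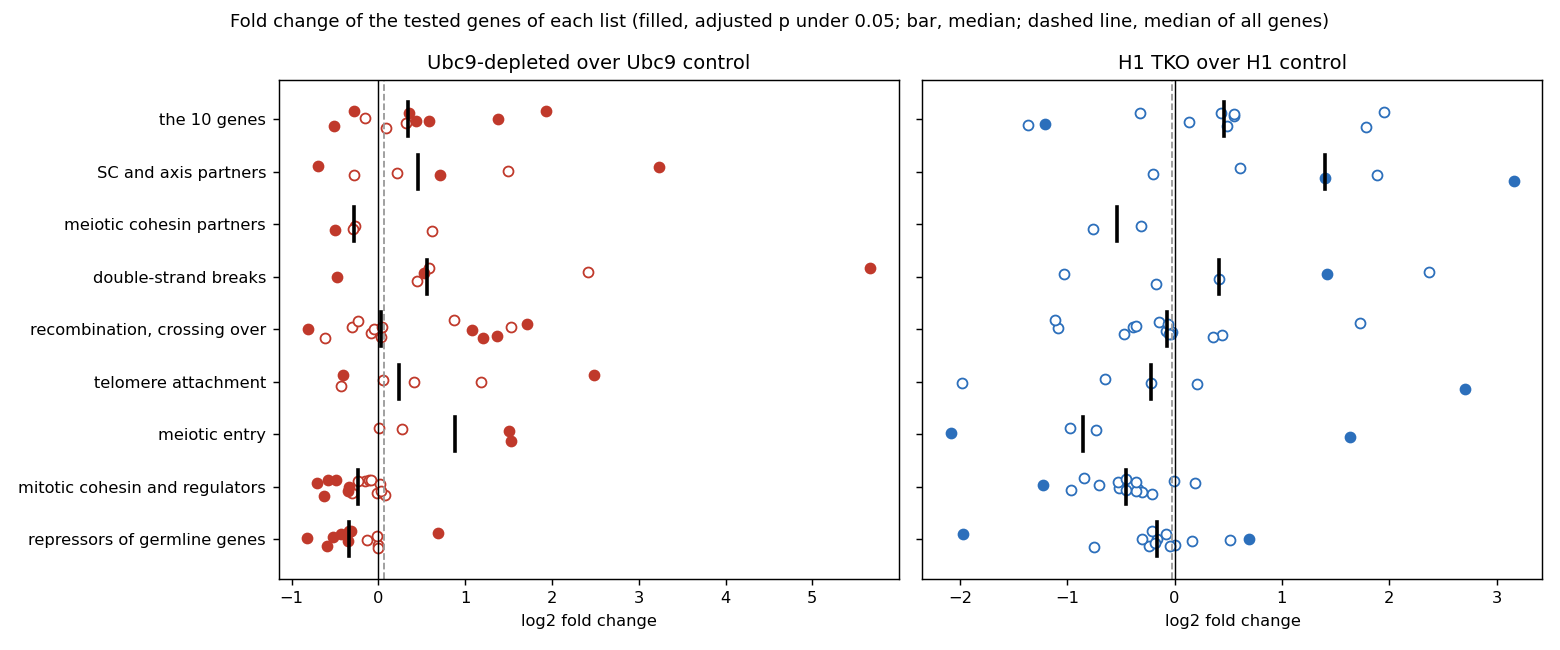
Log2 fold change of each tested gene of the 10 members, 6 meiotic lists, the mitotic cohesin list and the list of repressors, in Ubc9-depleted cells over Ubc9 controls (left) and H1 TKO cells over H1 controls (right); filled points passed at an adjusted p under 0.05, bars are list medians and the dashed line is the median of all genes tested. On the left the filled points of the mitotic cohesin list all lie below 0, and those of the 10 members lie on both sides.

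Markers of other cells differed between the groups. Of all genes tested, 21.1% were called higher and 15% lower in the Ubc9 comparison, and 8.59% and 8.43% in the H1 comparison. Of 8 markers of 2-cell-like cells, a rare state of stem cell cultures, 8 rose in Ubc9-depleted cells, to summed levels of 454 and 470 CPM against 23.7 and 23.3 CPM in Ubc9 controls. In H1 TKO cells 6 of the 8 rose, with sums of 68.1 and 72.5 CPM against 5.53 and 2.62 CPM in H1 controls. Of 9 markers of fibroblast feeders, 5 rose in Ubc9-depleted cells, with sums of 41.9 and 38.9 CPM against 21.1 and 20.8 CPM in Ubc9 controls. Pdgfrb was lower there without passing, at 4.71 and 4.37 CPM against 5.55 and 5.67 CPM in Ubc9 controls. In the H1 comparison 4 of the 9 were tested, 0 rose and 1 fell. The sums were 9.13 and 9.24 CPM in H1 TKO cells and 14.1 and 22.5 CPM in H1 controls, where Pdgfrb alone had 8.14 and 12.9 CPM. Thy1 went the other way, at 1.80 and 2.52 CPM in H1 TKO cells and 0.394 and 0.873 CPM in H1 controls. Of 11 markers of germ cells and spermatocytes, 8 were tested in the Ubc9 comparison and 3 rose, with sums of 227 and 235 CPM in Ubc9-depleted cells and 99.7 and 111 CPM in Ubc9 controls. Most of that sum was Dazl, which is also in the list of meiotic entry genes. The late spermatid genes Tnp1 and Prm1 were at 0.0999 CPM or less in every library, and Pgk2 was at 0 in 6 of the 8. In the H1 comparison 2 of 7 tested germ cell markers rose and 1 fell, with sums of 149 and 153 CPM in H1 TKO cells and 103.4 and 69.2 CPM in H1 controls. The part of these markers in the results for the 10 genes was not tested.

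The genes on either side of each member were examined as well. In the Ubc9 comparison 4 of 20 such neighbours were called higher and 6 lower, against 21.1% and 15% of all tested genes. The counts in the H1 comparison were 3 and 1 of 20, against 8.59% and 8.43%. Tspan2, 17.0 kb from Sycp1, was higher in Ubc9-depleted cells (log2 fold change 0.62, edgeR adjusted p = 5.69e-05), while Sike1, on its other side, was lower (-0.33, 0.0243). Both neighbours of Sycp2 were called higher there, Phactr3 (2.40) and Ppp1r3d (4.63), the latter on 163 and 19 reads against 5 and 2. Beside Hormad1, Ctsk was called higher (2.02) and Golph3l lower (-0.31). Ppp1r3d (8.01) and Ctsk (4.45) were also called higher in H1 TKO cells. Ppp1r3d had 19 and 47 reads in H1 TKO cells against 0 and 0 in H1 controls, and Ctsk 33 and 32 against 3 and 0. With so few control reads the size of these fold changes is not well determined. These neighbours are named after their values were seen.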

How the data were processed

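Trizol RNA was purified on polyA beads, and the library kits were ScriptSeq v2 (Ubc9 cells) and Lexogen SENSE V2 (H1 cells), per the labels' protocols. The authors deposited counts per gene symbol, 1 table for each comparison, and per the submitters' processing notes cutadapt, STAR, HTSeq, DESeq2 and mm10 were used. Not given in the sources used here are their roles and versions, the annotation and any use of strand in counting.

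In R 4.3.3, edgeR 4.0.16 was fitted to the 4 libraries of each comparison, after filterByExpr (minimum count 10, minimum total 15) and TMM scaling. Quasi-likelihood F tests were adjusted by Benjamini-Hochberg over all genes tested, with a threshold of 0.05. The standard error is the log2 fold change divided by the square root of F. The interaction was fitted on all 8 libraries. CPM values use TMM-scaled totals. The fit was tested on simulated counts. Unscaled totals of 44441713 to 102780141 counts put 3 counts at 0.0292 to 0.0675 CPM. On TMM-scaled totals 3 counts were 0.03 to 0.0685 CPM. This floor covers counting error only.

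Coordinates and exonic lengths come from GENCODE M21 (GRCm38) and promoters from RefSeq GRCm38.p6. Of the listed genes, 109 were matched by name, 13 by an older name, and 6 were not matched. The 10 members, the pathway and marker lists and the naming rule were chosen with earlier results of these data known. The level of the depleted gene is not reported here. The rule named all members, up to 4 called genes of each pathway list with the largest fold change, and markers, of which a part is given here. A further rule, naming genes with a pattern like that of the highest member, was not applied because the libraries fall into 2 clusters by kit. Alternatives were no filter, RLE factors, scaling by totals only, a replicate block, DESeq2 1.42.0, all 8 libraries in 1 fit and leaving out each library.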

Additional observations from a re-analysis of the deposited data

Results flagged for a closer look

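The genes below, members and genes of the pathway lists, are those for which the Ubc9 log2 fold change and the H1 log2 fold change differed in edgeR's test of the difference over all 8 libraries, each given as the Ubc9 value minus the H1 value, with its SE. Among the members these were Syce1 at -0.86 ± 0.22 (adjusted p = 0.027) and Stag3 at 0.89 ± 0.25 (0.037). Among genes of the other lists, the difference was positive for Gm1564 (Meioc) at 2.51 ± 0.42 (0.0031), Stra8 at 2.34 ± 0.24 (0.00018), Mnd1 at 1.73 ± 0.24 (0.001), Cbx3 at 1.62 ± 0.29 (0.0044) and Tex15 at 1.55 ± 0.45 (0.043). It was negative for Fkbp6 at -2.97 ± 0.23 (4.1e-05), 4933406J08Rik (Terb2, a telomere attachment gene) at -2.67 ± 0.64 (0.019), Hormad2 at -2.12 ± 0.31 (0.0014), Rec114 at -1.91 ± 0.23 (0.00046), Ccnb1ip1, a crossover gene, at -1.18 ± 0.33 (0.036) and Max, a repressor of germline genes, at -0.97 ± 0.23 (0.02). For Hormad2 and Rec114 the comparisons themselves were called in opposite directions, lower in Ubc9-depleted cells and higher in H1 TKO cells. The kits and lines cannot be told apart from the treatments in these differences.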

How the results depend on the processing

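In the Ubc9 comparison 7 of the 10 genes were called, 5 higher and 2 lower. With all 8 libraries in 1 fit 0 were called, 0 higher and 0 lower, while 1583 of the 16974 genes tested were called. RLE factors gave 4 called higher and 1 lower, and library totals alone gave 6 higher and 0 lower. Leaving out 1 library gave between 1 and 6 called, 1 to 5 higher and 0 to 2 lower. In the H1 comparison 1 gene was called, lower, and 0 higher. No filter gave 3 (1 higher, 2 lower), DESeq2 gave 2 (1 higher), and all 8 libraries in 1 fit gave 6 (4 higher, 2 lower). The fit of 8 called 4363 of the 16974 genes tested in the H1 comparison. Leaving out 1 library gave 0 to 7 called, 0 to 6 higher and 0 to 3 lower. For the difference between the comparisons, 2 genes passed, 1 higher and 1 lower. RLE factors and DESeq2 gave 1 each and 0 higher, no filter gave 4 (2 and 2), library totals alone gave 2 higher and 0 lower, and leaving out 1 library gave 0 to 8, 0 to 4 higher and 0 to 6 lower. Where 1 library was left out, a group rests on 1 library. Otherwise the cause was not tested.

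The replicate block gave 3 called in the H1 comparison, 2 of them higher, and 4 for the difference, 2 higher and 2 lower. Over all genes, 3461 passed in the H1 comparison with the block against 2518 without it, and 5803 against 5946 in the Ubc9 comparison. Same-numbered libraries had deviations that correlated over genes at 0.0174 (Ubc9) and 0.0565 (H1). With 2 pairs each, this cannot show whether same-numbered libraries were handled together.

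Log2 fold changes that changed sign were all of results that had not passed. With library totals alone Rec8 was 0.030 in the Ubc9 comparison, Tex11 -0.0012 in the H1 comparison, and the differences of Hormad1 and Tex11 were 0.30 and 0.28. Leaving out 1 library gave -0.11 to 0.19 for Tex11 in the Ubc9 comparison. In the H1 comparison it gave -0.15 to 2.13 for Sycp2, -0.013 to 1.10 for Hormad1 and -0.73 to 2.68 for Tex11. For the difference it gave -3.03 to 0.24 for Sycp1, -0.29 to 2.07 for Sycp2, -0.72 to 0.44 for Hormad1 and -2.65 to 0.80 for Tex11. In H1 controls, library 2 held 8 reads of Sycp1 and 2 of Sycp2, against 88 and 12 in library 1. The totals of the pair were similar, at 52960206 counts in library 2 and 56032400 in library 1.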
